A study of Homo sapiens with 8 samples.

Results

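The genes described here are those of the NF-kB pathway together with the chemokines, inflammatory cytokines and receptors that surround it. A list of 42 genes was drawn up by name, and a gene counted as measured where a probe set of the array was annotated to its symbol alone. Of the 42 genes 39 were measured, through 75 probe sets, out of 19775 genes measured in all. Expression of TRAF2, BIRC3 and CCL3 was not analysed here. Where several probe sets read a gene, it was represented by the brightest one, taken on its mean over the 8 arrays.

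RNA came from K562 cells, an established human line derived from chronic myeloid leukaemia. All cultures stably carried p42-C/EBPa-ER, the full-length form of the myeloid transcription factor C/EBPα fused to the oestrogen receptor, which beta-estradiol moves into the nucleus. In the estradiol group 4 cultures received 1 µM beta-estradiol for 6 h, and in the vehicle group 4 cultures received ethanol for the same time. Cells were grown in phenol red-free RPMI with 10% charcoal-stripped serum. No culture without the fusion is in the labels used here, so an effect of estradiol alone cannot be told apart from that of the fusion, and the labels state neither the promoter of the transgene nor whether the line is 1 clone.

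NF-kB is a family of dimers built from the subunits p50 (made from NFKB1), p52 (made from NFKB2), RelA, RelB and c-Rel. In resting cells the dimers are held by inhibitors of the IkB family, and signals from receptors such as those for tumour necrosis factor (TNF) and interleukin-1 activate IkB kinases that mark the inhibitors for destruction. Free dimers then switch on chemokine and cytokine genes, and also genes such as NFKBIA and TNFAIP3 that shut the pathway down again. C/EBPα has been reported to act on the p50 subunit, and C/EBP proteins share several cytokine promoters with NF-kB.

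Each array gave log2 expression values whose medians ran from 4.97 to 5.08 and whose lower quartiles ran from 3.67 to 3.74. Upper quartiles ran from 6.90 in vehicle replicate 2 to 7.03 in vehicle replicate 1. Array correlations within a group lay between 0.994 and 0.998. Precision is limited by the number of arrays. All 10 measured markers of K562 and erythroid leukaemia cells lay above the median of all probe sets (5.05). Their mean level was 10.52 to 10.54 in the estradiol arrays and 10.78 to 10.84 in the vehicle arrays. Of these markers 6 fell and 0 rose (limma adjusted p below 0.05). That is 60%, where 17.9% of all genes were called in either direction, and 26.4% of genes above that median. Of all genes at or below that median 2.42% were called. Of the 15 measured markers of other blood cells 0 were called. Their mean levels in the estradiol and vehicle arrays were 5.08 to 5.26 and 5.20 to 5.31 for 6 T and NK cell genes, 5.15 to 5.20 and 5.19 to 5.28 for 4 B cell genes, and 4.30 to 4.57 and 4.41 to 4.57 for 5 monocyte genes. Above the median of all probe sets lay 3, 2 and 1 of these genes. The part of these lists in the results below was not tested. CEBPA itself differed by −0.02 ± 0.07 (SE, limma adjusted p = 0.883, with levels of 6.19 to 6.47 and 6.31 to 6.44) and ESR1 by 0.04 ± 0.06 (adjusted p = 0.699, with levels of 8.68 to 8.80 and 8.62 to 8.81). The sign for CEBPA turned with median centring of each array (0.0049). CEBPA was read by 1 probe set and ESR1 by 9. The ESR1 probe set used carries the array maker's suffix for probes that can bind other transcripts (_x_at). Whether these probe sets read the fusion transcript is not known here, so they do not give the level of the fusion.

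After 6 h of estradiol the receptor gene TNFRSF1A more than doubled. IkB family genes NFKBIZ and NFKBIA, the feedback gene TNFAIP3, the chemokine CXCL2, the cytokine IL6 and the subunit gene NFKB2 rose by smaller amounts. These sizes are those of the probe sets used. The other NFKBIZ probe set rose by 1.32 on the log2 scale, against 1.15 for TNFRSF1A. NFKB1, TNFRSF1B and the activation marker CD83 fell. The remaining 29 measured members, among them RELA, TNF, IL1B, CXCL8 and all 4 measured CC chemokines, did not pass the test. In all 7 members rose and 3 fell (limma, two-sided, Benjamini-Hochberg adjusted p below 0.05 over all 19775 genes). That is 25.6% of the 39 members, where 17.9% of all genes were called, 8.29% higher and 9.6% lower. The members were listed with earlier results of these data known, which may bear on this share. Estradiol and vehicle arrays were fully separated in 11 of the 39 members (28.2%), against 24.1% of all genes. The median change was −0.01 over the members and −0.03 over all genes on the log2 scale, and the median size of change, regardless of sign, was 0.13 and 0.09. The count of rises was 4 without estradiol replicate 2 and 4 to 7 over all fits without 1 array.

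The level of a gene bore on how often it was called. Of the 24 members above the median of all probe sets 9 were called, where 26.4% of all genes above that level were called. Of the 15 members below it 1 was called, CXCL2, where 2.42% of all genes at or below it were. All 6 CXC chemokines, 3 of the 4 CC chemokines and 2 of the 3 TNF family ligands lay below it. No detection calls were used here, so whether these dim genes lay above background is not known.

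**Figure D1:**
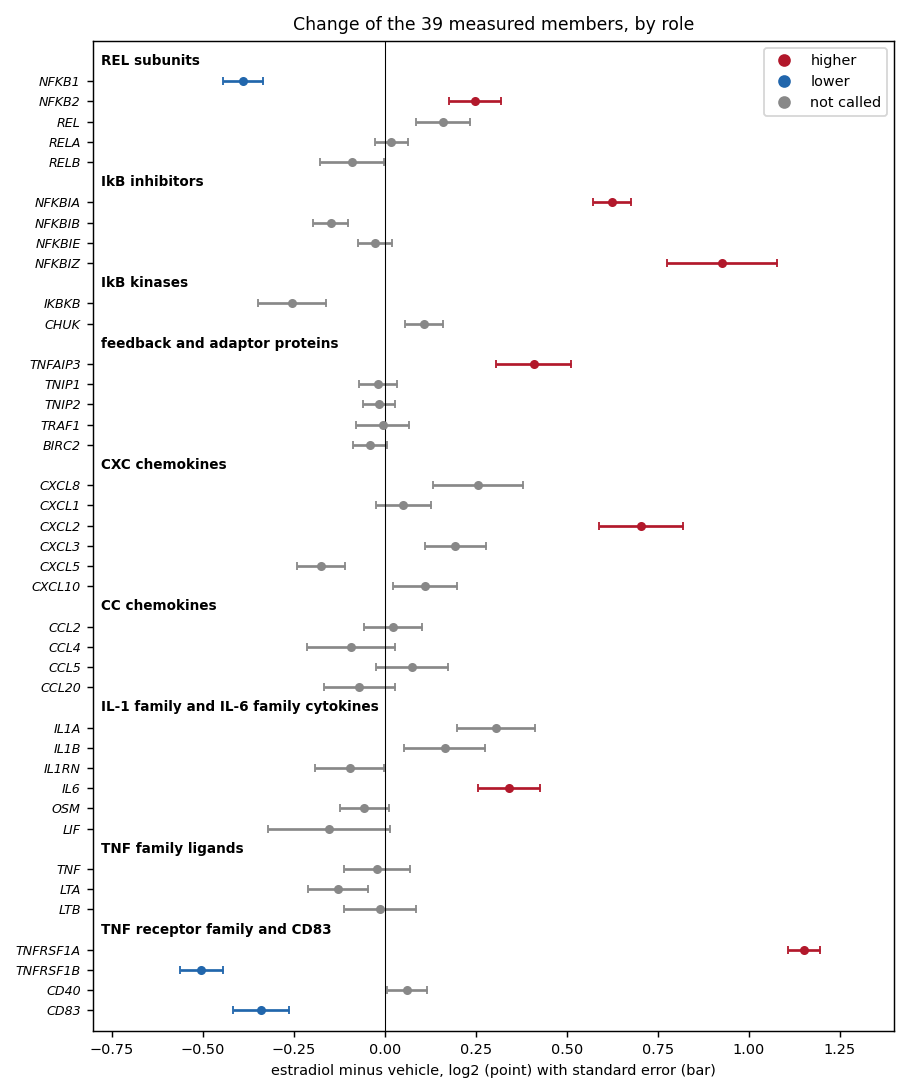
Change of the 39 measured members, estradiol minus vehicle on the log2 scale (horizontal axis), grouped by role; points are means of 4 against 4 arrays, bars are standard errors, and colours give the call. The 7 rises range from NFKB2 at 0.25 to TNFRSF1A at 1.15, and the falls are NFKB1, TNFRSF1B and CD83.

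Among the receptors, the 2 TNF receptors moved in opposite directions. TNFRSF1A encodes TNFR1, the widely expressed receptor with a death domain. Its log2 levels were 9.42, 9.39, 9.33 and 9.40 in estradiol replicates 1 to 4 and 8.29, 8.24, 8.23 and 8.16 in the vehicle replicates. Every estradiol array lay more than 1 log2 unit above every vehicle array. The difference was 1.15 ± 0.04 (SE, 2.22-fold, limma adjusted p = 4.29e-07), and TNFRSF1A was called in each of the 17 alternatives, with changes of 1.13 to 1.18. TNFRSF1B encodes TNFR2, which has no death domain and is found mainly on blood cells and endothelium. Its levels were 7.34, 7.41, 7.46 and 7.39 with estradiol and 7.98, 7.78, 7.86 and 8.001 with vehicle. The groups did not overlap, and the difference was −0.50 ± 0.06 (1.42-fold lower, adjusted p = 0.000367). Each of these receptors was read by 1 probe set.

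CD83, a surface protein of activated dendritic cells and lymphocytes and a known NF-kB target, stood at 6.04, 6.28, 6.21 and 6.00 with estradiol and at 6.35, 6.51, 6.45 and 6.58 with vehicle. The highest estradiol array, replicate 2, lay 0.07 below the lowest vehicle array. The fall was 0.34 on the log2 scale (SE 0.08, 1.26-fold, adjusted p = 0.0141). CD40, a TNF receptor family member that can also signal through the p100 branch of the pathway, differed by 0.06 ± 0.06 (adjusted p = 0.552), and the sign turned to −0.06 with the mean of its 4 probe sets.

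The subunit genes did not move together. NFKB1 encodes p105, the precursor of the p50 subunit. Its levels were 7.87, 7.89, 7.79 and 7.75 with estradiol and 8.10, 8.25, 8.26 and 8.26 with vehicle. Vehicle replicate 1 was lower than the other 3 vehicle arrays and still above every estradiol array. NFKB1 fell by 0.39 on the log2 scale (SE 0.05, 1.31-fold, adjusted p = 0.00106), and by 0.43 without vehicle replicate 1. NFKB2, which encodes the p100 precursor of p52, rose at the edge of the test. It stood at 5.72, 5.89, 5.71 and 5.87 with estradiol and 5.52, 5.40, 5.65 and 5.62 with vehicle. These groups were separated by 0.06 at their nearest arrays. The difference was 0.25 ± 0.07 (1.19-fold, adjusted p = 0.0405). NFKB2 was no longer called when estradiol replicate 2 or 4, or vehicle replicate 1, 2 or 4, was left out (adjusted p from 0.056 to 0.114), nor with the mean of its 3 probe sets (0.10, adjusted p = 0.419). The range of adjusted p over all 17 alternatives was 0.0128 to 0.419.

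RELA, the main activating subunit p65, had levels of 8.53, 8.48, 8.51 and 8.54 with estradiol and 8.45, 8.49, 8.59 and 8.46 with vehicle. These ranges overlapped, and the difference was 0.02 ± 0.05 (adjusted p = 0.854). The dimmer probe set of RELA had levels of 7.52 to 7.71 with estradiol and 7.82 to 7.89 with vehicle, a difference of −0.21 ± 0.05 that was called among all probe sets (adjusted p = 0.0308, where 13.1% of all probe sets were called). The difference for RELA was negative with the mean of both probe sets (−0.10, adjusted p = 0.189) and also with quantile normalization (−0.02). REL, the c-Rel gene, differed by 0.16 ± 0.07 (adjusted p = 0.195), and 0 of its 5 probe sets were called. RELB, the partner of p52, differed by −0.09 ± 0.09 (adjusted p = 0.594) at a level below the median of all probe sets.

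The genes of the IkB family split between 2 that rose and 2 that did not pass the test. NFKBIA encodes IkBα, the inhibitor that NF-kB itself induces and that ends a response. Its levels were 9.14, 9.06, 9.15 and 9.04 with estradiol and 8.52, 8.39, 8.55 and 8.43 with vehicle. The spread within each group was small beside the gap, and NFKBIA rose by 0.62 ± 0.05 (1.54-fold, adjusted p = 4.28e-05). Its other probe set, with a mean of 4.74 below the median of all probe sets, differed by −0.14 ± 0.12. With the mean of both the rise was 0.24 (adjusted p = 0.0169).

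NFKBIZ encodes IkBζ, a nuclear member of the family that helps NF-kB switch on IL6 and other secondary genes. It stood at 7.58, 7.28, 6.99 and 7.27 with estradiol and 6.50, 6.56, 5.97 and 6.38 with vehicle. All 4 estradiol arrays were higher than all vehicle arrays, although both groups were spread more widely than those of NFKBIA. The rise was 0.93 ± 0.15 (1.90-fold, adjusted p = 0.00254). On the other NFKBIZ probe set the levels were 7.41, 7.46, 7.18 and 7.44 against 6.40, 5.97, 5.85 and 5.97, a rise of 1.32 ± 0.12 that was also called. NFKBIZ was the single called member with several probe sets where another of them was called as well. NFKBIB, the IkBβ gene, had groups that did not overlap (7.36 to 7.53 against 7.55 to 7.63) and a difference of −0.15 ± 0.05 that missed the threshold (adjusted p = 0.0624, or 0.0386 without estradiol replicate 1, with 0.0255 to 0.288 over 17 alternatives). The NFKBIB probe set used also carries the _x_at suffix. Another NFKBIB probe set with that suffix differed by −0.04 ± 0.04, with overlapping groups. NFKBIE, the IkBε gene, differed by −0.03 ± 0.05.

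The 2 IkB kinases did not pass the test. IKBKB, the catalytic subunit of the classical route, differed by −0.25 ± 0.09 (adjusted p = 0.107, or 0.0318 without estradiol replicate 2, with 0.0318 to 0.234 over 17 alternatives). CHUK, the catalytic subunit of the route that processes p100, differed by 0.11 ± 0.05 (adjusted p = 0.215). Of the 5 measured feedback and adaptor genes 1 rose, TNFAIP3, which encodes the ubiquitin-editing enzyme A20. Its levels were 6.05, 6.18, 6.33 and 6.26 with estradiol and 5.88, 5.49, 5.95 and 5.86 with vehicle. Vehicle replicate 2 was the lowest array and widened the vehicle spread. The rise was 0.41 ± 0.10 (1.33-fold, adjusted p = 0.0229). TNFAIP3 was not called without estradiol replicate 2, 3 or 4 (adjusted p from 0.0541 to 0.0660) or with the mean of both probe sets (0.30, adjusted p = 0.061), within 0.00523 to 0.0660 over its 17 alternatives. The A20 partners TNIP1 and TNIP2 and the adaptors TRAF1 and BIRC2 differed by −0.04 to −0.01, with adjusted p from 0.650 to 0.978. The signs for TNIP1, TNIP2 and TRAF1 turned with median centring of each array.

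**Figure D2:**
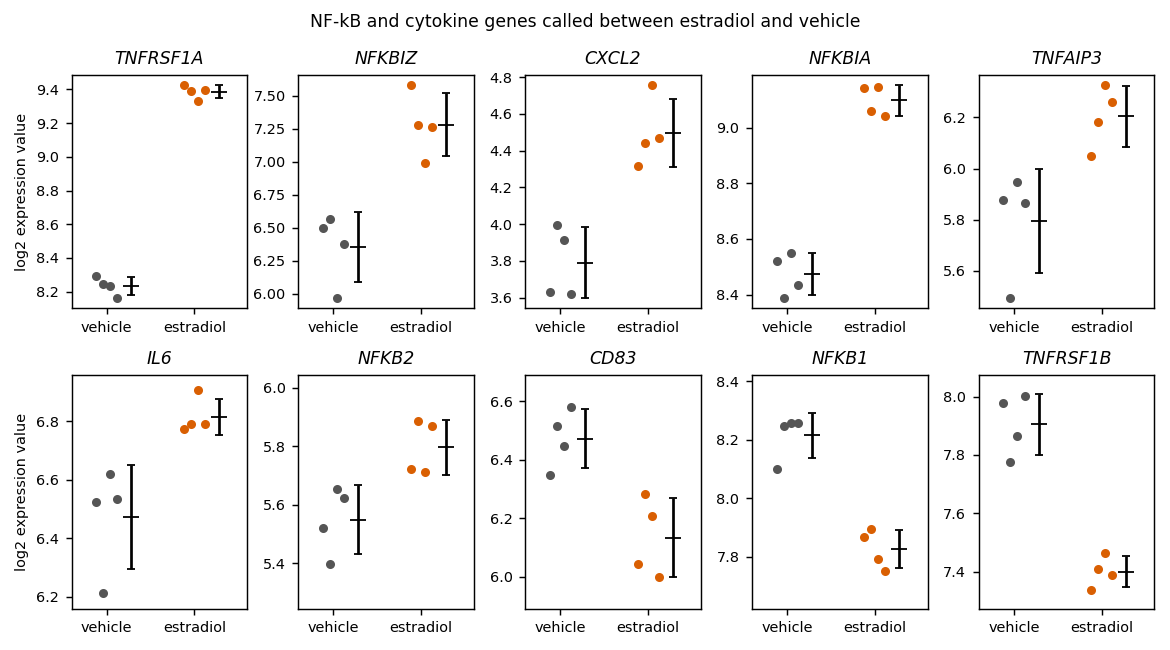
Log2 expression values of the 10 called members in each array (points), by group, with the mean and SD of 4 arrays beside them; each panel has its own vertical axis, which does not start at 0. In all 10 panels the estradiol and vehicle arrays are separated, widely for TNFRSF1A and by 0.06 for NFKB2.

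Promoters of members are shown because NF-kB and C/EBP proteins are known to bind short sequence forms, which can be searched for. The kB-like form searched was GGG followed by any 3 bases and TTCC, a common core of NF-kB sites, and the C/EBP-like form was TTGCNNAA, where N is any base. Both strands of the 250 bases before each start were read from RefSeq promoters of GRCh38.p14. A stretch such as GGGAATTTCCC matches the kB-like form on both strands, so its 2 matches overlap. The sequences below run 5′ to 3′ along the gene and end at the base before the start, with matches in capitals.

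Called genes of the subunits, the IkB family and the feedback proteins are shown first. NFKB1 fell and the others rose, while all 5 hold a kB-like match before at least 1 start. Their positions are chr4:102501259-102501358, plus strand for NFKB1, chr10:102394468-102394577, plus strand for NFKB2, chr14:35404750-35404849, minus strand for NFKBIA, chr6:137867159-137867258, plus strand for TNFAIP3 and chr3:101827740-101827989, plus strand for NFKBIZ.
NFKB1: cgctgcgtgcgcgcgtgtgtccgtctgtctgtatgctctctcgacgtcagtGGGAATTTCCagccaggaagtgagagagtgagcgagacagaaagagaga
NFKB2: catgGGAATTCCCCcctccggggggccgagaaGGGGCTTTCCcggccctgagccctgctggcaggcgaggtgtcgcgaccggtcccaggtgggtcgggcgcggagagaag
NFKBIA: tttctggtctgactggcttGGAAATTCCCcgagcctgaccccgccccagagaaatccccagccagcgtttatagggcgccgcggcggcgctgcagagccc
TNFAIP3: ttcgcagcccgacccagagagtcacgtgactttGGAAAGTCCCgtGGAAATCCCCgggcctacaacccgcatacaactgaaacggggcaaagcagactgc
NFKBIZ: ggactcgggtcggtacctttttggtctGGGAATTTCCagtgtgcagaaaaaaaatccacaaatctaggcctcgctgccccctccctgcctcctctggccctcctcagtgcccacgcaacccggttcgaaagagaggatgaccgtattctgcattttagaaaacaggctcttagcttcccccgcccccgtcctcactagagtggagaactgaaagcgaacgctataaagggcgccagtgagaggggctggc

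A kB-like match lay 49 bases before the start of NFKB1, 81 before that of NFKBIA, 67 and 55 before that of TNFAIP3 and 223 before that of NFKBIZ, counted to the first base of the match. NFKB1 and NFKBIZ have 2 annotated starts each, and no match was found before the start not shown. NFKB2 has 3 annotated starts, and the start shown has 2 matches, 106 and 78 bases before it. Another NFKB2 start has 1 match, 21 bases before it, and the remaining start has 0. A kB-like match before at least 1 start was found for 20 of the 33 members with a promoter entry. They made up 60.6% of these members, while 6.87% of all 27305 genes in the table held one. Counted by promoter, it was 22 of 51 (43.1%) against 5.67% of 35116. The members were listed by name as genes of this pathway, some of them known NF-kB targets. This excess over all genes therefore cannot be told apart from the choice of the list. The form was present in 6 of the 7 members that rose, in 2 of the 3 that fell and in 11 of the 20 that were not called. BIRC3, for which no expression was analysed, also held one. A C/EBP-like match was found for 4 of the 33 members (12.1%), against 11% of all genes in the table. These were CXCL2, IL6, IL1B and CCL3, of which CXCL2 and IL6 rose. RELB, NFKBIE, IKBKB, CCL4, CCL2, CCL5, OSM, LIF and CD40 had no promoter entry.

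**Figure D3:**
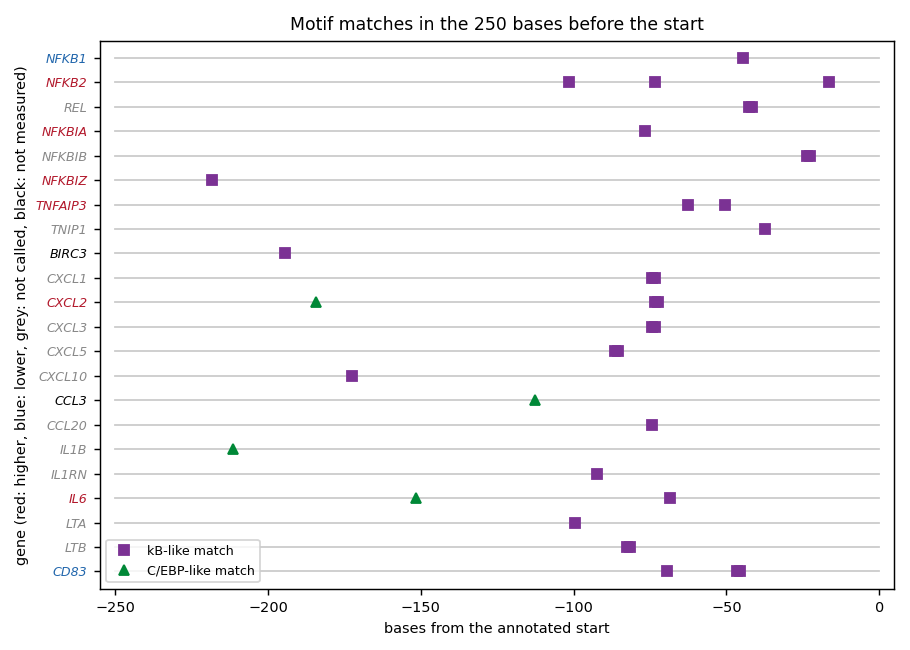
Positions of kB-like (squares) and C/EBP-like (triangles) matches in the 250 bases before the annotated start, for the members with a match, all starts of a gene drawn on 1 line; the horizontal axis gives bases from the start. Gene names are coloured by call, and matches stand both at genes that rose and at genes that were not called.

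Most of the listed CXC chemokines draw neutrophils to sites of inflammation, and 1 of the 6, CXCL2, rose. Its levels were 4.32, 4.44, 4.76 and 4.47 with estradiol and 3.63, 3.99, 3.91 and 3.62 with vehicle. The groups did not overlap, yet all 8 values lay below the median of all probe sets. The rise was 0.70 ± 0.12 (1.63-fold in signal, adjusted p = 0.00255). The other 2 CXCL2 probe sets differed by 0.06 ± 0.13 and −0.06 ± 0.08, and with the mean of the 3 the call was lost (0.23, adjusted p = 0.0737, the highest of 16 alternatives that began at 0.000133). The probe set that was called has an identifier ending in _x_at, the suffix of the array maker for probes that can bind other transcripts. CXCL2 has the near-identical neighbours CXCL1 and CXCL3, so its signal cannot be assigned to 1 of them alone.

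The neighbours themselves were not called. CXCL1 stood at 3.11 to 3.29 with estradiol and 3.00 to 3.34 with vehicle, a difference of 0.05 ± 0.07 (adjusted p = 0.733). CXCL3 stood at 4.10 to 4.35 and 3.88 to 4.24, a difference of 0.19 ± 0.08 (adjusted p = 0.170). Their promoters are shown with that of CXCL2 because all of them carry the same kB-like stretch at nearly the same distance, while the C/EBP-like match was found in CXCL2 alone of them. They lie at chr4:73869293-73869392, plus strand for CXCL1, chr4:74099196-74099395, minus strand for CXCL2 and chr4:74038690-74038789, minus strand for CXCL3.
CXCL1: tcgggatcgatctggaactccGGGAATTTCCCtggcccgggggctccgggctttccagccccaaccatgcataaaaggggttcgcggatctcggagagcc
CXCL2: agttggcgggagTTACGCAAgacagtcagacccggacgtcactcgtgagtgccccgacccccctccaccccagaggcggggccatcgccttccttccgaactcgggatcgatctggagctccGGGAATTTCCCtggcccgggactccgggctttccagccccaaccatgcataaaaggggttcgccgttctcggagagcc
CXCL3: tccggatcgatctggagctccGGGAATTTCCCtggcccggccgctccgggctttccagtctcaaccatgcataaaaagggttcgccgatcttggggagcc

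The kB-like stretch GGGAATTTCCC began 79 bases before the start in CXCL1 and CXCL3 and 78 before it in CXCL2. The C/EBP-like match of CXCL2 began 188 bases before the start and lay on the other strand. Whether this match has a part in the CXCL2 signal was not tested. CXCL8, the interleukin-8 gene and the best known neutrophil chemokine, had levels of 4.59, 4.36, 4.47 and 4.04 with estradiol and 3.96, 4.33, 4.01 and 4.15 with vehicle. The ranges overlapped through estradiol replicate 4, and the difference was 0.26 ± 0.12 (adjusted p = 0.218, or 0.0452 without that array, with 0.0452 to 0.418 over 16 alternatives). CXCL10, an interferon-induced chemokine, differed by 0.11 ± 0.09, and CXCL5 by −0.17 ± 0.07 (adjusted p = 0.108, or 0.0450 without vehicle replicate 2, with 0.0312 to 0.827 over 15 alternatives). The monocyte and lymphocyte attractants CCL2, CCL4, CCL5 and CCL20 differed by −0.09 to 0.07, with adjusted p from 0.695 to 0.901. The signs for CCL2 and CCL5 turned without estradiol replicate 1 (−0.04 and −0.0089).

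Among the 6 cytokines of the IL-1 and IL-6 families, IL6 rose and 5 did not pass the test. IL6, a cytokine of fever and the acute phase, stood at 6.77, 6.79, 6.91 and 6.79 with estradiol and 6.52, 6.21, 6.62 and 6.53 with vehicle. Estradiol replicate 3 was the highest array and vehicle replicate 2 the lowest. The rise was 0.34 ± 0.08 (1.27-fold, adjusted p = 0.0216). It was not called without estradiol replicate 2, 3 or 4 (adjusted p from 0.0504 to 0.0633, within 0.00508 to 0.0633 over 17 alternatives). Its promoter at chr7:22727000-22727199, plus strand is shown because it holds both forms.
IL6: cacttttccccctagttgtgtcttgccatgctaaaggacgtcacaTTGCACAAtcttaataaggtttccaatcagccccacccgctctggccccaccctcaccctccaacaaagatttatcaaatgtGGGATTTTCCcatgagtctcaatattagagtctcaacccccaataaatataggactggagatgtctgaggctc

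In this window the C/EBP-like match began 155 bases before the start and the kB-like match 73 before it. IL1B, the secreted fever cytokine, had levels of 6.05, 6.16, 6.17 and 6.10 with estradiol and 5.74, 6.31, 5.94 and 5.83 with vehicle. Vehicle replicate 2 stood above all other arrays, and the difference of 0.16 ± 0.11 was not called (adjusted p = 0.402). Without that array IL1B was called, at 0.28 (adjusted p = 0.0135, within 0.0135 to 0.630 over 17 alternatives). IL1A, the cell-associated form, differed by 0.30 ± 0.11 (adjusted p = 0.0882, or 0.0288 without estradiol replicate 3, with 0.0288 to 0.348 over 16 alternatives). The receptor antagonist IL1RN differed by −0.10 ± 0.10, and the IL-6 relatives OSM and LIF by −0.06 ± 0.07 and −0.15 ± 0.17. The sign turned for IL1RN without vehicle replicate 2 (0.00061) and for OSM without estradiol replicate 1 (0.0053).

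The TNF family ligands did not pass the test. TNF, which activates the pathway through both receptors above, had levels of 3.81, 4.00, 4.30 and 4.11 with estradiol and 4.04, 4.07, 4.10 and 4.09 with vehicle. The estradiol arrays lay on both sides of the vehicle arrays, and the difference was −0.02 ± 0.09 (adjusted p = 0.918). The lymphotoxin genes LTA and LTB differed by −0.13 ± 0.08 and −0.01 ± 0.10. The signs for TNF and LTB turned with median centring of each array, to 0.00470 and 0.0132.

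The promoters of CD83, TNFRSF1A and TNFRSF1B complete the set. On the probe sets used, the last pair holds the largest rise and the largest fall of all members. CD83 lies at chr6:14117672-14117771, plus strand, TNFRSF1A at chr12:6342077-6342176, minus strand and TNFRSF1B at chr1:12166891-12166990, plus strand.
CD83: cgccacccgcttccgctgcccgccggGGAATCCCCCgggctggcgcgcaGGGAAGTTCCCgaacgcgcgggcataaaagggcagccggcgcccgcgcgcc
TNFRSF1A: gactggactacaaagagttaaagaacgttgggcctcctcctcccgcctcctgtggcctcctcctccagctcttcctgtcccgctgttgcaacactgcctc
TNFRSF1B: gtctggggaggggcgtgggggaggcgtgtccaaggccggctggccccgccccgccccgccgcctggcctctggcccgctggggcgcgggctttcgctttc

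CD83 has 2 annotated starts, and before the start shown kB-like matches began 74, 51 and 50 bases away, the last 2 overlapping. No match was found before its other start. Neither form was found before TNFRSF1A or TNFRSF1B, which says only that these letters are not in the 250 bases searched.

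Where several probe sets read a gene, they often differed. Of the 10 called members 5 had 1 probe set and 5 had 2 or 3. For NFKBIA, TNFAIP3, CXCL2 and NFKB2 the other probe sets were not called, and 0 probe sets were called in the opposite direction. The other probe set of TNFAIP3 differed by 0.19 ± 0.10. Those of NFKB2 differed by 0.14 ± 0.11 and −0.07 ± 0.11. Uncalled genes also held probe sets with sizeable differences, such as a REL probe set at 0.45 ± 0.15 and an NFKBIB probe set at −0.36 ± 0.14.

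**Figure D4:**
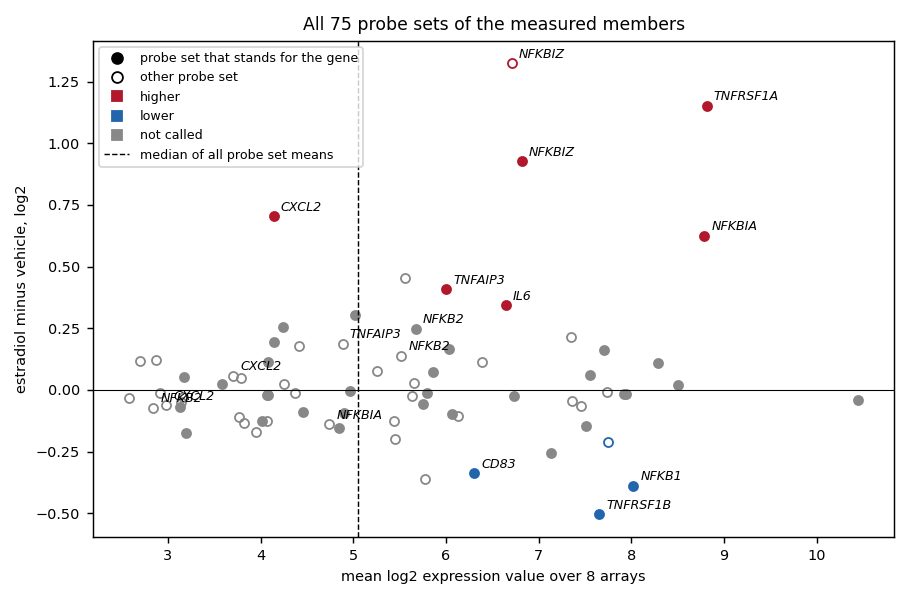
Change of each of the 75 probe sets of the measured members (vertical axis, estradiol minus vehicle, log2) against its mean log2 value over 8 arrays (horizontal axis); filled points stand for the gene, open points are other probe sets, and colours give the call when all probe sets with 1 symbol were tested. NFKB2 is not coloured because it was not called in that larger test, and CXCL2 is the single called point left of the dashed median of all probe sets.

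Other genes of the pathway were taken from 3 lists chosen by function, with earlier results of these data known. The choice of the lists may therefore bear on the called shares given below. Of 27 measured signalling genes 7 rose and 4 fell (40.7%), beside 17.9% of all genes and 26.4% of all genes above the median level, where 26 of the 27 lay. The list median was 0.00 against −0.03 for all genes. TANK, a scaffold that binds TRAF proteins and the kinase TBK1, stood at 9.52, 9.44, 9.40 and 9.45 with estradiol and 8.62, 8.53, 8.62 and 8.58 with vehicle. It rose 1.82-fold (0.87 ± 0.04, adjusted p = 2.36e-06), and all 4 of its probe sets were called, with rises of 0.45 to 1.07. RBCK1, the HOIL-1 subunit of the linear ubiquitin ligase, rose 1.49-fold (0.57 ± 0.04, adjusted p = 2.61e-05), or by 0.26 with the mean of its 3 probe sets.

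MALT1, the protease that carries antigen receptor signals to NF-kB, stood at 9.02, 9.05, 9.05 and 9.06 with estradiol and 9.88, 9.67, 9.81 and 9.84 with vehicle. These groups lay far apart, and MALT1 fell by 0.75 on the log2 scale (SE 0.05, 1.69-fold, adjusted p = 1.47e-05), with all 3 probe sets called lower. TRAF5, an adaptor of TNF receptor family members, fell by 0.55 (SE 0.12, 1.46-fold, adjusted p = 0.0108), and by 0.30 with the mean of its 2 probe sets. The signalling count was 7 without estradiol replicate 4 and 7 without vehicle replicate 3.

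Of 24 further measured NF-kB target genes 3 rose and 3 fell (25%, against 17.9% of all genes, median −0.01), and 13 of the 24 lay below the median level. Of these 13, 1 was called, PTX3, where 2.42% of all genes at or below that level were. PTX3, a secreted pattern recognition protein, stood at 5.92, 6.07, 6.00 and 5.48 with estradiol and 2.92, 3.38, 3.35 and 3.41 with vehicle. Its vehicle values lay below the lower quartile of the arrays, so the 6.09-fold rise (2.61 ± 0.15, adjusted p = 4.45e-06) is one of signal and was not shown to start above background. IER3, an early stress and survival gene, rose 3.34-fold (1.74 ± 0.08), and the urokinase gene PLAU 1.31-fold (0.39 ± 0.07), or by 0.26 (adjusted p = 0.0556) with the mean of its 2 probe sets. The adhesion molecule ICAM1 fell by 0.36 (SE 0.06, 1.28-fold).

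Of 15 measured receptors for the chemokines and cytokines above 3 rose and 0 fell (20%, against 17.9% of all genes, median −0.04). Below the median level lay 11 of the 15. Of these 11, 2 were called, LIFR and IL1R1, where 2.42% of all genes at or below that level were. IL6R, the ligand-binding receptor for interleukin-6, stood at 6.16, 6.30, 6.33 and 6.42 with estradiol and 5.13, 4.05, 4.68 and 4.72 with vehicle. Vehicle replicate 1 was the highest of its group and still below every estradiol array. The rise was 1.66 ± 0.19 (3.15-fold, adjusted p = 0.000318), and the other 2 probe sets rose by 1.59 and 0.23. The shared signalling chain IL6ST differed by −0.16 ± 0.06 (adjusted p = 0.0820). LIFR, the receptor for LIF, rose 1.74-fold (0.80 ± 0.15, adjusted p = 0.00591), or by 0.44 with the mean of its 5 probe sets, and IL1R1, the signalling receptor for interleukin-1, rose 1.43-fold (0.51 ± 0.12, adjusted p = 0.0168) from a level below the lower quartile, or by 0.31 with the mean of its 2 probe sets. The chemokine receptors CXCR1, CXCR2, CXCR3, CCR1, CCR2 and CCR6 were not called.

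**Figure D5:**
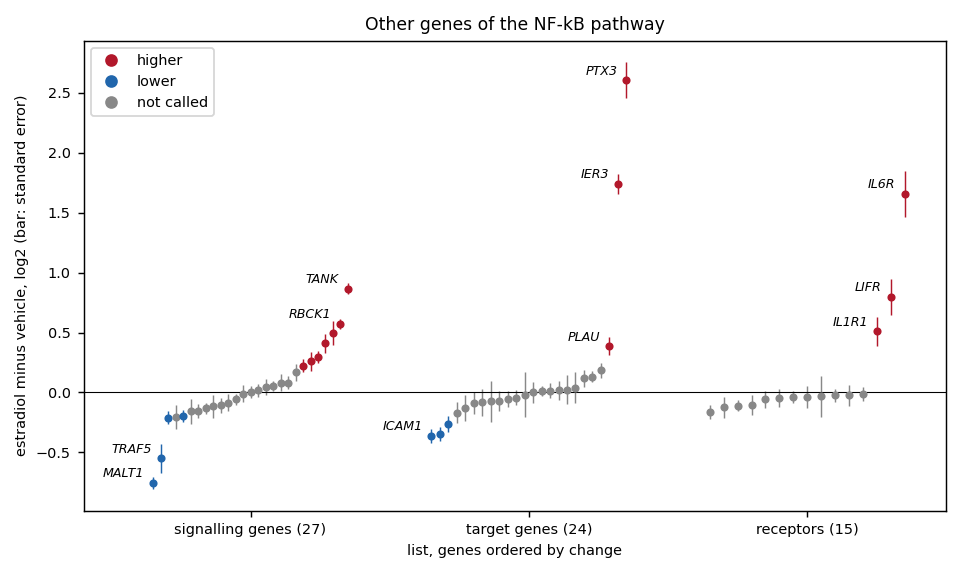
Change of the other pathway genes, estradiol minus vehicle on the log2 scale (vertical axis) with standard errors as bars, in 3 lists with genes ordered by change; colours give the call, and up to 4 called genes with the largest change are named in each list. PTX3 at 2.61, IER3 at 1.74 and IL6R at 1.66 lie above all others.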

How the data were processed

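Each of 8 RNA samples (200 ng of total RNA), 4 per group, was put on 1 array. Sample titles gave groups and numbers and name the samples biological replicates; nothing more says how cultures were separated, so the spread behind the p-values may be technical in part. The authors deposited log2 values from RMA, as the submitters' processing notes state without a version. RMA equalizes the distributions of the arrays, so it hides a shift common to most genes.

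Of 54675 probe sets 41097 had 1 gene symbol in the platform annotation and were used, 1801 had several and 11777 had none listed. Estradiol was compared with vehicle with limma 3.58.1 (lmFit and eBayes) in R 4.3.3 over 19775 genes, with no block or filter, and Benjamini-Hochberg adjusted over all of them. Errors of differences are moderated standard errors. The test was checked on simulated data. Figures came from matplotlib 3.10.9.

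The members and lists were chosen with earlier results of these data known. Values in each array were to be given for called members and for NFKB1, RELA, CXCL8, IL1B, IL6 and TNF, and up to 4 called genes with the largest change were named from each other list. IL6ST and the chemokine receptors were named after their values were seen. Alternatives were a replicate block, other scalings (median centring, quantile, cyclic loess), filters at the median and lower quartile level, averaging the probe sets of a gene, testing every probe set, array weights, a robust fit with a variance trend, an adjusted p below 0.01, and each array left out. For the named genes of other lists and CEBPA the block, scalings, averaging and left-out arrays were chosen after seeing the data.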

Additional observations from a re-analysis of the deposited data

Results flagged for a closer look

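In 78 groups of 4 arrays, 39 members in each of 2 treatments, 1 array stood apart from the other 3 by Dixon's 95% criterion in 4, where chance flags about 1 in 20 groups. In the vehicle group of NFKB1, replicate 1 was at 8.10 and the others at 8.25 to 8.26, a gap of 0.944 of the range. In the estradiol group of IL6, replicate 3 was at 6.91 and the others at 6.77 to 6.79, a gap of 0.870 of the range. In the estradiol group of LIF, replicate 1 was at 4.31 and the others at 4.90 to 4.95, a gap of 0.920 of the range. In the estradiol group of TNIP1, replicate 4 was at 7.85 and the others at 7.96 to 7.97, a gap of 0.876 of the range.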

How the results depend on the processing

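The changes of the 39 members were recomputed under up to 17 alternatives each, 644 values in all, of which 583 kept direction and side of the threshold, 16 lost a call, 12 gained one and 33 turned sign. Of the 10 called members 6 (NFKB1, NFKBIA, NFKBIZ, TNFRSF1A, TNFRSF1B and CD83) kept their call at an adjusted p below 0.05 in all of them and 0 turned sign; these alternatives do not include the stricter threshold or the test of every probe set. At an adjusted p below 0.01 there were 1040 rises and 1139 falls among all genes, against 1639 and 1899, with 4 members higher, 2 lower (CD83 lost its call) and 6 other signalling genes called. With the mean of all probe sets 4 members rose, and with array weights 5 fell. With quantile or cyclic loess normalization 5 receptors of the ligands were called, against 3. Falls made up 53.7% of all calls, and 45.5%, 58.4% and 51.4% with median centring, quantile and cyclic loess normalization.

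Same-numbered samples did not deviate together (correlations of −0.05, −0.21, 0.09 and 0.11 between their deviations from the group means), so numbers were not taken as pairs. With the replicate number as a block 7 other signalling genes were called, against 11, and NFKB2 (adjusted p = 0.103) and TRAF5 (adjusted p = 0.0577) lost their calls; the block changed no other call among the members and the other genes it was run for, which leave out ESR1 and IL6ST, and left 2598 calls among all genes, against 3538.

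Without 1 array at a time, genes called numbered 1276 to 1792 higher and 1456 to 2058 lower, members 4 to 7 higher and 3 to 4 lower, signalling genes 7 to 13, target genes 5 to 7 and receptors 3 to 4.

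Signs that turned belonged to members that were not called and to CEBPA, which was not run under array weights. With median centring NFKBIE became 0.000082, TNIP1 0.0082, TNIP2 0.011, TRAF1 0.021, TNF 0.0047, LTB 0.013 and CEBPA 0.0049. With quantile normalization RELA became −0.020 and TRAF1 0.024, and with cyclic loess TRAF1 0.031, TNF 0.0073, LTB 0.020 and CEBPA 0.0018. With the mean of all probe sets RELA became −0.096, TNIP1 0.0055, CCL5 −0.035 and CD40 −0.058. With array weights CCL2 became −0.013, TNF 0.0070 and LTB 0.023. Without 1 array TNIP1 ran from −0.041 to 0.015, TNIP2 from −0.042 to 0.0051, TRAF1 from −0.046 to 0.044, CCL2 from −0.045 to 0.081, CCL5 from −0.0089 to 0.13, IL1RN from −0.16 to 0.00061, OSM from −0.10 to 0.0053, TNF from −0.10 to 0.060, LTB from −0.074 to 0.075 and CEBPA from −0.062 to 0.033. The cause of these turns was not tested. Signal over background is not known for the 15 members below the median level, which limits what their values can show.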
